A study of Mus musculus with 16 samples.

Results

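The comparison described here set 32Dcl.3 cells that had received IRF8 and C/EBPalpha together against the same cells with empty vectors. The members were chosen by their labels, as the day 3 arrays of those groups. These are 4 of the 16 single-colour arrays of the series, 2 with both factors and 2 with empty vectors. All 16 arrays measured total RNA of mouse cells. The other 32Dcl.3 arrays, 2 with IRF8 alone and 2 with C/EBPalpha alone, are used where the combination is set against a single factor. The remaining 8 arrays hold sorted bone marrow progenitors of wild-type and Irf8-deficient mice.

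Cells with both factors had been transduced with MSCV-IRF8-IRES-hCD8t together with MSCV-C/EBPalpha-IRES-puro. IRF8 cells had the IRF8 vector with an empty MSCV-IRES-puro, and C/EBPalpha cells had the C/EBPalpha vector with an empty MSCV-IRES-hCD8t. Empty-vector cells carried both backbones without an insert. All 4 groups therefore received 2 retroviral vectors by spinoculation, were kept in medium that WEHI-3B cells had conditioned and were collected on day 3. The factors are murine cDNAs placed in MSCV retroviral vectors, so their level is not that of the endogenous genes, and every array comes from 1 cell line. The labels do not say whether transduced cells were selected before RNA was taken. The arrays of a group come from experiments 1 and 2, which the series describes as independent, and the p-values measure the spread between these arrays.

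32Dcl.3 is an interleukin-3 dependent mouse myeloid progenitor line that can be driven towards granulocytes. C/EBPalpha, a basic leucine zipper factor, is needed for the step from early progenitors to granulocyte and monocyte progenitors, and it opposes the cell cycle. IRF8 binds interferon-type sites, often with PU.1, and steers progenitors towards monocytes and dendritic cells and away from neutrophils. In bone marrow both factors are present in monocyte progenitors, where granule genes, antigen presentation genes and proliferation genes are all regulated.

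Values are given as relative signal, the processed intensity of a probe divided by the 75th percentile of its array. The 75th percentile was lower with both factors, at 153.8 and 147.3, than on the empty-vector arrays, at 460.1 and 445.2, and it was 214.6 to 368.6 on the single-factor arrays. Of the probes, 49.9 to 52.4% were well above background with both factors and 56.2% with empty vectors. Replicate arrays correlated at 0.996 with both factors and 0.997 with empty vectors, and no spot was saturated. All 8 32Dcl.3 arrays lie on 1 slide with 1 scan. IRF8 followed the slide column and C/EBPalpha the slide rows, so group and array position cannot be told apart. In bulk RNA, fewer cells of a type and less RNA per cell cannot be told apart either.

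The probes for Irf8 and Cebpa were not well above background on any 32Dcl.3 array. The Irf8 probe had a processed signal of 1.97 and 2.33 with both factors, 13.0 and 11.4 with IRF8, 2.32 and 2.44 with C/EBPalpha and 13.0 and 6.76 with empty vectors, and the Cebpa probe stayed between 3.03 and 3.98. The arrays therefore do not check the labels by the transduced genes, and whether these probes lie in the sequence that the vectors carry was not tested. Of the markers of a myeloid progenitor line, Myb, Cd34, Mpo, Csf2rb, Il3ra, Spi1 and Ptprc were well above background on all 4 arrays. Kit did not enter the test.

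Of 13337 genes tested, 11310 changed (84.8%) between cells with both factors and empty-vector cells, by limma with a Benjamini-Hochberg adjusted p under 0.05. With both factors 5074 genes (38%) were higher and 6236 (46.8%) lower. At least a 2-fold change was reached by 2339 genes higher (17.5%) and 2769 lower (20.8%), and these shares are the background for every count below. The 2-fold counts use the fitted change, also for genes that were not well above background in 1 of the groups, whose size is known only as a bound. Large changes ran mostly upwards: 425 genes were at least 8-fold higher and 110 at least 8-fold lower. At 32-fold the numbers were 102 and 1. The faintest signal well above background was 9.69 and 11.3 with both factors and 13.1 and 12.9 with empty vectors. Divided by its lower 75th percentile, this floor stood higher with both factors, so falls reach it sooner and equal dim signals come out higher. Its part in this asymmetry was not tested. Without a filter on dim probes 7050 genes were at least 2-fold higher and 2766 lower. The arrays of each group lay apart from those of the other for 12261 genes (91.9%), so a lack of overlap is the rule here. Where arrays were scaled to their median, the median change of all genes moved to -0.75 on the log2 scale, from -0.10, and 22.0% of the called genes were higher with both factors in place of 44.9%. With the percentile taken over detected probes that median was 0.19 and 56.8% were higher, and without a filter on dim probes 61.7% were higher. Changes of less than about these shifts depend on the scaling. For dim genes the higher floor with both factors is a further limit, and its size was not measured as a change. Of the genes at least 2-fold higher, 1198 (51.2%) stayed so under all 5 other scalings and background corrections tried, as did 1546 (55.8%) of those at least 2-fold lower.

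**Figure D1:**
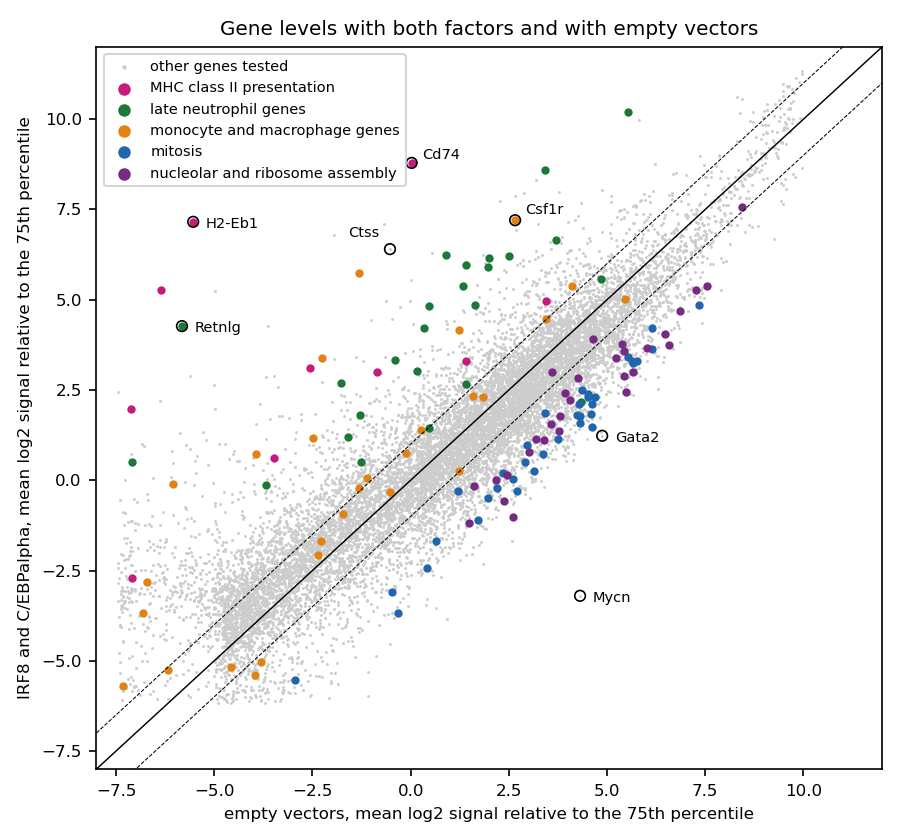
Each point is 1 of the 13337 genes tested, with its mean log2 relative signal over 2 arrays with both factors (vertical) and over 2 empty-vector arrays (horizontal), the solid line marking equal levels and the dashed lines a 2-fold difference. The 10 MHC class II genes and 22 of 25 late neutrophil genes lie above the 2-fold lines, 36 of 36 mitosis and 27 of 30 nucleolar genes below, and Mycn is farthest below at a log2 change of -7.51.

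Antigen presentation by MHC class II held the largest rises. Of 11 listed genes 10 were tested, and 10 of 10 were at least 2-fold higher with both factors, with a median log2 change of 5.03, or 4.89 with genes at their bound, against -0.10 for all genes. Cd74, the invariant chain that chaperones class II molecules, had relative signals of 441 and 444 with both factors, against 1.01 and 1.02 with empty vectors. Both arrays with both factors were far above both empty-vector arrays, and the log2 change was 8.76 ± 0.04 (SE, adjusted p = 9.67e-18).

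H2-Ab1, the beta chain of I-A, had 38.8 and 38.1 with both factors and was not well above background with empty vectors. It was at least 1339-fold higher (adjusted p = 9.66e-15), where the bound replaces a dim value by the faintest signal that was well above background on that array. H2-Aa, the alpha chain of I-A, was at least 137.6-fold higher (adjusted p = 5.07e-14). H2-Eb1, the beta chain of I-E, had 141.5 and 144.1 with both factors, against 0.0381 and 0.0122 with empty vectors, where 1 of the 2 arrays detected it (log2 change 12.69 ± 0.36, adjusted p = 5.22e-12). H2-DMa, a subunit of the peptide exchange factor H2-M, had 8.73 and 8.68 with both factors, against 0.166 and 0.174 (log2 change 5.68). IRF8 alone gave H2-DMa 8.41 and 8.39, next to the levels with both factors, and C/EBPalpha alone 0.247 and 0.317. The groups of H2-Eb1 and H2-DMa did not overlap.

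The promoters of H2-Aa and H2-Eb1 are shown because class II genes share a Y box, the site of NF-Y. They were picked after the values were seen, as were all promoters below. Each sequence is the RefSeq promoter of build GRCm38.p6, from 250 bases before the start to 50 after it, written 5′ to 3′ on the strand of the gene, with the matched motif in capitals. Both strands were searched. The Y box was searched as CTGATTGG and was found 51 bases before the start of H2-Aa, which lies on the minus strand at chr17:34287774-34288073, and 62 bases before the start of H2-Eb1, on the plus strand at chr17:34305617-34305916. It was found in 3 of 8 promoters of the class II list (37.5%), against 4.1% of all 32851 promoters and 5.3% of those of genes tested. It was also found in 24.1% of mitosis and 17.5% of replication promoters, lists that fell, and in 4.26% of promoters of genes at least 16-fold higher. A match is a description of the letters and not a site of binding.
H2-Aa: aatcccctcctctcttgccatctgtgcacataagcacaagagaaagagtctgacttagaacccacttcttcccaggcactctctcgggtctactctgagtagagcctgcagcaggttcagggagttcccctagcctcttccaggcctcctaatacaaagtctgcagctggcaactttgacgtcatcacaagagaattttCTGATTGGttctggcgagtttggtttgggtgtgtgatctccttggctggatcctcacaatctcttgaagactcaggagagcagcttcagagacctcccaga
H2-Eb1: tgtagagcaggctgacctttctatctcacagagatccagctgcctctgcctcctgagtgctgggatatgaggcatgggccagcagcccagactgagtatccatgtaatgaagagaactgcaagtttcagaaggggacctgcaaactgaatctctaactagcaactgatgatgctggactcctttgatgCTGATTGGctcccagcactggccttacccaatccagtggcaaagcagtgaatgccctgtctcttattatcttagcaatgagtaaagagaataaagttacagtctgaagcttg

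Monocyte, macrophage and dendritic cell genes moved in both directions, more of them upwards. Of 28 monocyte and macrophage genes tested of 41 listed, 15 were at least 2-fold higher with both factors and 1 lower, with a median of 1.05, or 0.95 with genes at their bound. Csf1r, the receptor of macrophage colony-stimulating factor, had 146.1 and 148.5 with both factors, 76.6 and 77.3 with IRF8, 14.5 and 13.2 with C/EBPalpha and 6.32 and 6.31 with empty vectors. These levels stepped downwards in that order without overlap, and the change against empty vectors was 4.54 ± 0.04, although the 3 probes of the gene ranged over 2.28 to 5.08.

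Mpeg1, which codes for the pore-forming perforin-2 of macrophages, had 52.4 and 54.0 with both factors, against 0.397 and 0.413 with empty vectors (7.04 ± 0.04). Trem2, a receptor of macrophages for lipids, had 10.6 and 10.4, against 0.198 and 0.219 (5.65), and Slc11a1, a metal transporter of phagosomes, changed by 4.67. Ccr2, the receptor that lets monocytes leave the marrow, had 0.988 and 0.890 with both factors and was at least 32.6-fold higher than with empty vectors, where it was not well above background. Fcgr1, the high-affinity IgG receptor, and Adgre1, the macrophage marker F4/80, were lower, with changes of -0.99 and -0.46. Egr1, an immediate early factor, was the 1 listed monocyte gene at least 2-fold lower, not well above background with both factors, so no size is given, and its direction turned with normexp background correction (0.71) and with dim values raised (0.11).

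Of 16 dendritic cell genes tested of 25 listed, 11 were at least 2-fold higher and 0 at least 2-fold lower (median 1.28). Equal dim signals come out higher with both factors, as stated above. The part of this in the median and in the smaller rises, such as those of Batf3, Ccr9 and Zbtb46, was not tested. Ccl17, a chemokine of dendritic cells that attracts CCR4-bearing T cells, had 137.4 and 137.9 with both factors and 52.8 and 52.7 with IRF8. With C/EBPalpha it had 0.171 and 0.155, below the 0.628 and 0.625 of empty-vector cells. Its change with both factors was 7.78 ± 0.04. Itgax, the CD11c integrin chain, had 4.65 and 4.46 with both factors, 3.03 and 3.14 with IRF8, 0.133 and 0.113 with C/EBPalpha and 0.519 and 0.536 with empty vectors. In both genes the C/EBPalpha arrays were the lowest and the arrays with both factors the highest. Id2, an inhibitor of helix-loop-helix factors needed for dendritic cells, changed by 3.27, the costimulatory ligand Cd80 by 2.49 and the NF-kappaB subunit Relb by 2.07. Tcf4, the factor of plasmacytoid dendritic cells, was lower (-0.998).

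Most neutrophil genes rose with both factors as well, and 19 of 25 stood at least 2-fold lower than with C/EBPalpha alone. The list of late neutrophil genes, with secondary and tertiary granule proteins, had 34 members, of which 25 were tested, and 22 were at least 2-fold higher than with empty vectors and 1 lower, with a median of 3.74. The 1 lower gene, Padi4, the enzyme that citrullinates histones, changed by -2.17 and was named after its value was seen. Ltf, the iron-binding lactoferrin of secondary granules, had 76.1 and 76.5 with both factors, 1.97 and 2.13 with IRF8, 438.8 and 435.6 with C/EBPalpha and 1.76 and 1.97 with empty vectors. The level with both factors thus lay between those of C/EBPalpha and of empty vectors, and did not overlap either (5.36 ± 0.05 against empty vectors and -2.52 against C/EBPalpha).

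Retnlg, a resistin-like secreted protein of neutrophils, had 19.0 and 19.6 with both factors and 87.2 and 88.2 with C/EBPalpha, and was not well above background with IRF8 or empty vectors. It was at least 671.3-fold higher with both factors than with empty vectors (adjusted p = 2.57e-12). Mmp8, the neutrophil collagenase, had 1.46 and 1.40 with both factors and was at least 49.8-fold higher than with empty vectors. S100a8 and S100a9, the subunits of calprotectin, changed by 5.16 and 4.66, and Adam8, a membrane protease, by 4.54. Adam8 had 62.1 and 61.8 with both factors and 53.0 and 55.0 with C/EBPalpha, and with Ifitm6 and Cyp4f18 it was among the 3 members whose change was larger with both factors (0.20, 0.63 and 0.89 above C/EBPalpha, named after their values were seen). S100a9 had 1163 and 1183 with both factors and 1259 and 1273 with C/EBPalpha, a small step down beside that of Ltf.

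The promoters of Ltf and Mmp8 are shown because of the C/EBP letters TTNCNNAA. These were held by 72.7% of the 22 promoters matched for the late neutrophil list. The share was 40.7% of all promoters, 33.5% of those of genes tested and 51.4% of the 37 of interferon-stimulated genes. The shown promoters of H2-Eb1 (2 matches) and of Mycn (1 match), a gene that fell, hold them too, without capitals. In Ltf, on the plus strand at chr9:111019042-111019341, these letters began 217 and 75 bases before the start, both on the opposite strand. In Mmp8, on the plus strand at chr9:7558179-7558478, they began 151 and 19 bases before it.
Ltf: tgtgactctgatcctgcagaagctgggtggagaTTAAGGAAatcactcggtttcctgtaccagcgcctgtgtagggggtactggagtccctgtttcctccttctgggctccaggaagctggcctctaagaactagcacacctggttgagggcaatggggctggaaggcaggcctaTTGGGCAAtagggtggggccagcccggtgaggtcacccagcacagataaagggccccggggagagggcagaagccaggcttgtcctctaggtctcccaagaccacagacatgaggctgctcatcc
Mmp8: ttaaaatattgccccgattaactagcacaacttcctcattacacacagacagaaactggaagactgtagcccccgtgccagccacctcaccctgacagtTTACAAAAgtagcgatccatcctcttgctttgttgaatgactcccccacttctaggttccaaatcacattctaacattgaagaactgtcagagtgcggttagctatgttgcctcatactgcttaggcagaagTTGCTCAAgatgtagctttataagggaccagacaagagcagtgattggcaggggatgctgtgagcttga

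Primary granule genes moved less. Of 11 tested, 5 were at least 2-fold higher with both factors and 0 at least 2-fold lower. The median of 0.60 turned to -0.06 with array-median scaling. Another 4 were called lower by less than 2-fold, Cst7 (-0.88), Prss57 (-0.70), Serpinb1a (-0.44) and Ctsg (-0.17). Mpo, the myeloperoxidase gene, had 492 and 519.5 with both factors, 57.6 and 58.1 with IRF8, 1184 and 1171 with C/EBPalpha and 162.2 and 167.6 with empty vectors. The combination gave a level between C/EBPalpha and empty vectors, and IRF8 alone the lowest. Elane, neutrophil elastase, had 12.6 and 12.3 with both factors, 63.8 and 62.9 with C/EBPalpha and 5.10 and 5.37 with empty vectors (1.25 ± 0.04). The lysozyme genes Lyz2 and Lyz1, whose sequences are close enough for probes to share signal, changed by 5.76 and 5.22. Among 8 granulocyte transcription factors and receptors, 4 were at least 2-fold higher and 0 at least 2-fold lower (median 1.00). Trem3 (-0.97) and Gfi1 (-0.43, named after its value was seen) were called lower by less than 2-fold. Mxd1, an antagonist of MYC, had 5.23 and 5.21 with both factors, against 0.373 and 0.383 with empty vectors (3.79 ± 0.05). Cebpe, a driver of secondary granules, had 51.7 and 52.5 with both factors, 147.2 and 152.3 with C/EBPalpha and 24.2 and 24.7 with empty vectors.

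**Figure D2:**
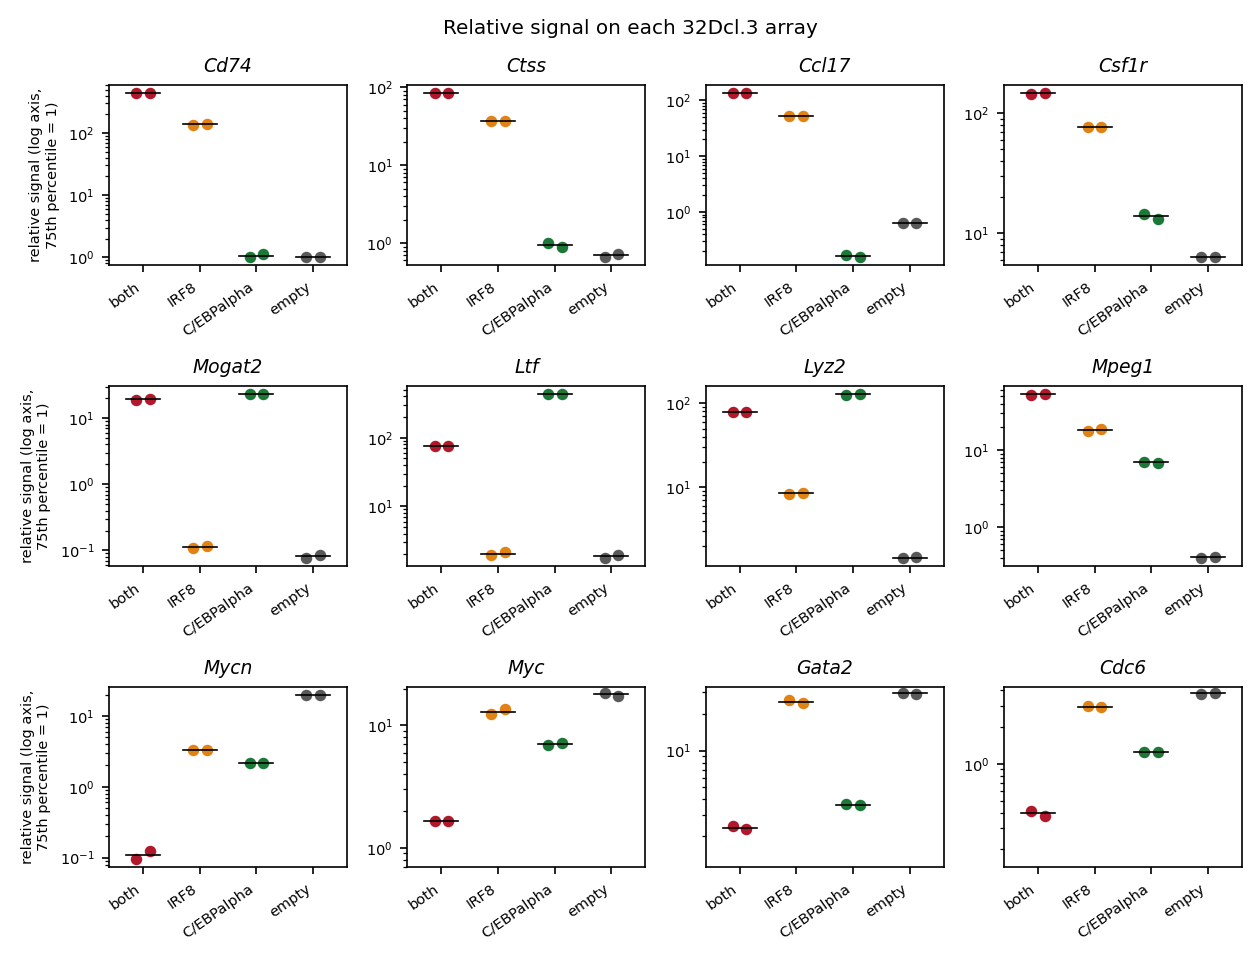
Relative signal (log axis, the 75th percentile of each array being 1) of 12 genes on each of the 8 32Dcl.3 arrays, in cells with both factors, IRF8, C/EBPalpha and empty vectors, with lines at the group means of the log2 values. Cd74, Ctss and Ccl17 are high where IRF8 was given, Mogat2, Ltf and Lyz2 are highest with C/EBPalpha alone, and Mycn, Myc, Gata2 and Cdc6 are lowest with both factors.

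The machinery of phagocytes rose across most of its members. Of 23 lysosomal protease and cystatin genes tested of 28 listed, 18 were at least 2-fold higher and 1 lower (median 1.33). Ctss, the cathepsin that trims the invariant chain, had 85.4 and 83.8 with both factors, 37.0 and 37.2 with IRF8, 1.00 and 0.890 with C/EBPalpha and 0.661 and 0.729 with empty vectors. Arrays with both factors were the highest and lay apart from those with IRF8, and the change against empty vectors was 6.93 ± 0.06 (adjusted p = 3.21e-16). Psap, the precursor of the saposins, changed by 4.20, Cst3, the secreted protease inhibitor cystatin C, by 4.17 and Ctsd, an aspartic protease, by 2.75. The 1 lower gene, Gusb, beta-glucuronidase, changed by -1.66 and was named after its value was seen.

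The promoter of Ctss is shown because an interferon-type site, searched as GAAA, any pair of bases and GAAA again, began 21 bases before its start, on the plus strand at chr3:95526536-95526835. These letters were found in 3.44% of all promoters, in 5.1% of those of genes at least 2-fold higher and in 7.45% of the 188 promoters of genes at least 16-fold higher. The composite site of an ETS factor with an IRF was searched as GGAA, any pair of bases and GAAA. It was found in 3 of the 188 promoters at 16-fold higher (1.6%) and in 2.57% of those at least 2-fold higher. Its share was 2.72% of all promoters, 2.36% of those of genes tested and 1.72% of those of genes at least 2-fold lower.
Ctss: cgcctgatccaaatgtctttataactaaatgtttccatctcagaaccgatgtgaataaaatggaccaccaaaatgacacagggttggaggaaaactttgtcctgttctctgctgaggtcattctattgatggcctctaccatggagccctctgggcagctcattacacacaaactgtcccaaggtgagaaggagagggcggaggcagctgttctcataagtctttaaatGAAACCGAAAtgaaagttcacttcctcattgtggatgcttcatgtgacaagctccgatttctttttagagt

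Of 25 pattern recognition and Fc receptor genes tested, 16 were at least 2-fold higher and 1, the TLR4 relative Cd180 (named after its value was seen), lower, with a median of 1.54. Cd180 was not well above background with both factors, and its bound of at least 1.62-fold lower is under the 2-fold of that count. Clec4n, the dectin-2 receptor for fungal mannans, had 112.9 and 110.3 with both factors, 19.3 and 19.8 with IRF8, 1.65 and 1.64 with C/EBPalpha and 0.252 and 0.270 with empty vectors. Each group lay apart from the next, with the combination the highest (8.74 ± 0.04). Nod2, a sensor of bacterial muropeptides, changed by 3.59, Tlr6 by 3.58 and the activating Fc receptor genes Fcgr4 and Fcgr3 by 3.44 and 3.18. Of 6 phagocyte NADPH oxidase genes, 5 were at least 2-fold higher (median 1.47), among them Ncf4 at 1.03 and Cyba at 1.44. Cybb, the catalytic subunit, was at least 4.96-fold higher, and the GTPase gene Rac2 changed by -0.41.

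Interferon-related genes rose in part. Of 36 interferon-stimulated genes tested of 44 listed, 19 were at least 2-fold higher and 2 lower, Ifit2 (-1.23) and Ifi47 (-1.08), both named after their values were seen, with a median of 1.20. Xaf1 had 1.24 and 1.17 with both factors, against 0.162 and 0.145 with empty vectors (2.98 ± 0.09). Irf9, the DNA-binding subunit of ISGF3, had 8.82 and 8.70 with both factors, 4.20 and 4.41 with IRF8, 3.55 and 3.40 with C/EBPalpha and 1.77 and 1.91 with empty vectors, so that each factor alone stood below the combination. The antiviral gene Oasl2 was at least 14.7-fold higher, and Ifit3 at least 4.01-fold. Ifnb1, interferon beta itself, had 0.124 and 0.113 with both factors and was not well above background in any other group of 32Dcl.3 cells, at least 4.12-fold higher than with empty vectors. It entered the test through the arrays with both factors alone, so this difference is a description.

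Of 13 guanylate-binding protein and immunity GTPase genes tested, 6 were at least 2-fold higher and 0 at least 2-fold lower (median 0.78). Gbp6 changed by 4.03, Gbp3 by 3.70 and Gbp5 by 3.54, and Gbp2 was at least 16.6-fold higher. Among 18 MHC class I presentation and immunoproteasome genes, 10 were at least 2-fold higher and 0 at least 2-fold lower (median 1.11). Nlrc5, the transactivator of class I genes, changed by 2.12, although its second probe changed by 0.19, and Tapbpl, a peptide editor, by 2.05. H2-Q4, H2-Q7 and H2-D1, near-identical genes whose probes may share signal, changed by 2.54, 2.16 and 2.15. In the IRF family, 2 of 7 genes tested were at least 2-fold higher, Irf9 and Irf7 (2.16).

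**Figure D3:**
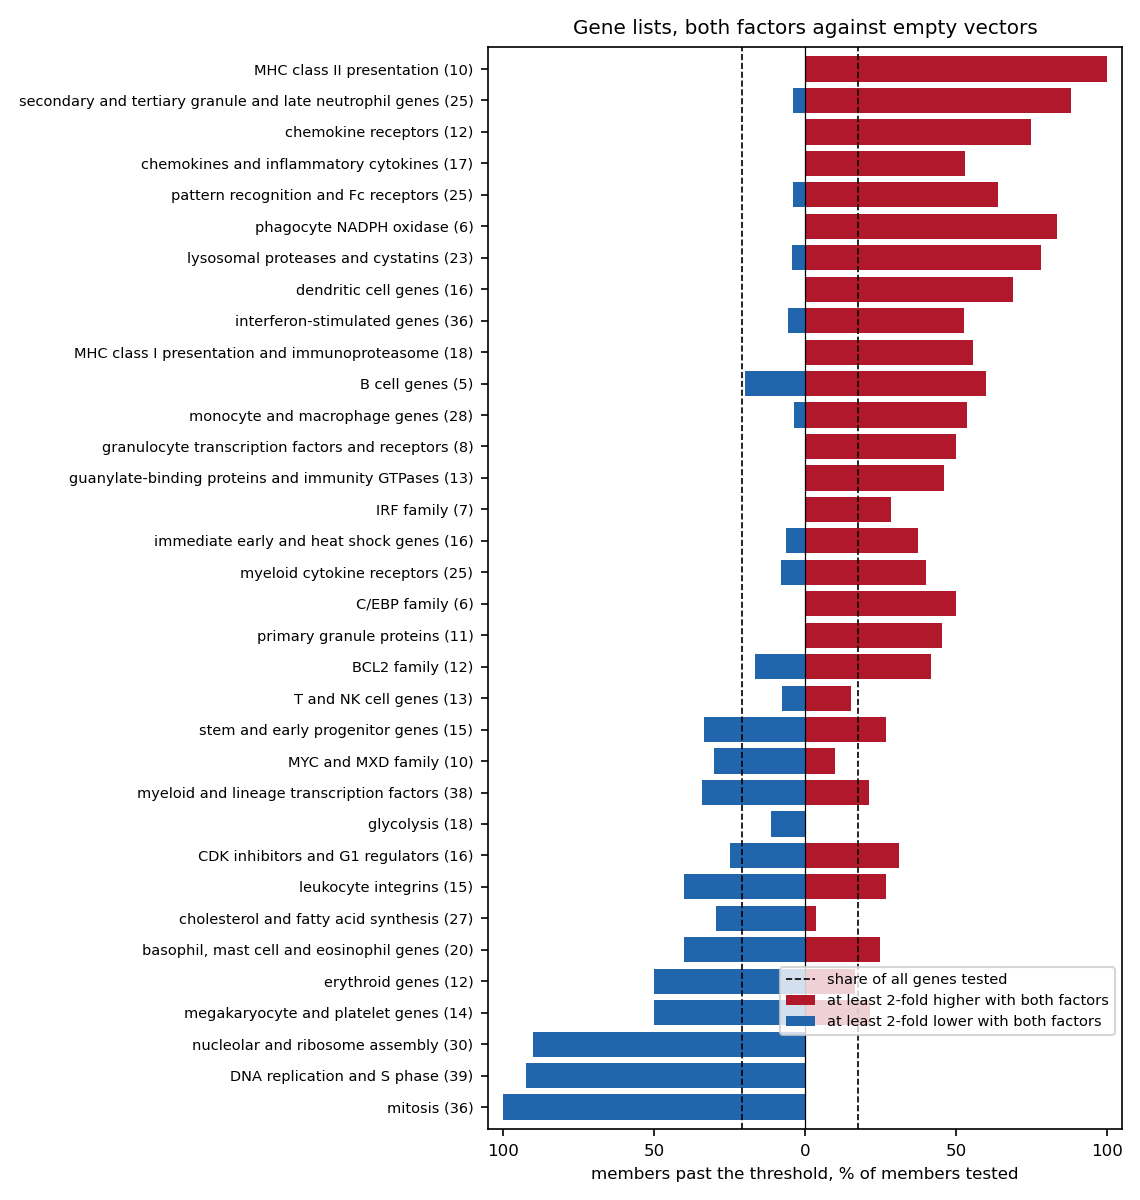
For 34 gene lists, the share of the members tested (number in brackets) that was called and at least 2-fold higher (red, right) or lower (blue, left) with both factors than with empty vectors, with dashed lines at the 17.5% and 20.8% of all genes tested. The MHC class II list reaches 10 of 10 higher and the mitosis list 36 of 36 lower.

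Signalling genes of myeloid cells changed in both directions. Of 25 cytokine receptor genes tested, 10 were at least 2-fold higher and 2 lower, Il2rg (-1.21) and Il1r1 (-1.03), both named after their values were seen, with a median of 0.67. Il6ra, the interleukin-6 receptor, had 31.7 and 30.6 with both factors, 15.95 and 15.23 with IRF8, 7.17 and 7.10 with C/EBPalpha and 0.616 and 0.683 with empty vectors (5.58 ± 0.05). Csf2ra, the alpha chain of the GM-CSF receptor, had 10.4 and 10.1 with both factors, below the 17.7 and 17.2 with C/EBPalpha (2.79 against empty vectors).

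Of 17 chemokine and inflammatory cytokine genes tested, 9 were at least 2-fold higher and 0 at least 2-fold lower. Their median was 1.60, and 0.13 among genes detected on all 8 arrays. Il1b, interleukin-1 beta, had 2.56 and 2.48 with both factors, 0.389 and 0.407 with IRF8 and 0.319 and 0.321 with C/EBPalpha, and was at least 87.8-fold higher than with empty vectors. Ccl6 had 320 and 315.9 with both factors, against 9.19 and 9.24 (5.11). Tnfsf13b, the B cell survival factor BAFF, had 0.941 and 0.966 with both factors, below the 4.48 and 4.69 with C/EBPalpha. Of 12 chemokine receptor genes tested, 9 were at least 2-fold higher and 0 lower, with a median of 2.05, or 1.69 with genes at their bound. Cxcr2, the neutrophil chemokine receptor, changed by 3.55. Among 15 leukocyte integrin genes, 4 were at least 2-fold higher and 6 lower. The higher genes include Itga9, which entered the test through the arrays with both factors alone. The lower genes include Itgad, not well above background with both factors, whose bound is at least 1.025-fold. The median of -0.51, or -0.04 with genes at their bound, turned to 0.20 with normexp. Itgam, the CD11b chain of myeloid cells, changed by 1.86 (0.73 to 2.72 over 3 probes) and Itgb7 by 1.93, while the platelet chains Itga2b and Itgb3 changed by -2.55 and -1.66.

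Among 38 myeloid and lineage transcription factor genes tested, 8 were at least 2-fold higher and 13 lower (median -0.43, or -0.26 with genes at their bound). The higher genes include Klf3, which entered the test through the arrays with both factors alone. The lower genes include Egr1, for which no size is given above. Gata2, a factor of stem, mast and megakaryocytic cells, had 2.42 and 2.28 with both factors, 25.8 and 24.4 with IRF8, 3.69 and 3.57 with C/EBPalpha and 29.4 and 29.3 with empty vectors. It was lowest with both factors, next above with C/EBPalpha, and the change against empty vectors was -3.64 ± 0.04 (adjusted p = 2.87e-15). Gata1, the erythroid and megakaryocytic factor, was not well above background with both factors and at least 9.91-fold lower than with empty vectors (0.662 and 0.718). Gfi1b, its partner in those lineages, changed by -3.29. Klf6, a zinc finger factor of activated macrophages, had 47.7 and 47.1 with both factors, against 4.62 and 4.70 with empty vectors (3.35 ± 0.03).

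In the C/EBP family, 3 of 6 genes tested were at least 2-fold higher and 0 at least 2-fold lower. The 3 were Ddit3, the stress-induced CHOP, at 2.31, Cebpd at 1.49 and Cebpe at 1.09. The median of 0.63 turned to -0.02 with array-median scaling. Cebpb changed by 0.18, and by -0.48 with array-median scaling and -0.09 with normexp. Among 15 stem and early progenitor genes, 4 were at least 2-fold higher and 5 lower (median -0.14, and 0.14 with the percentile over detected probes). Erg, a stem cell ETS factor, changed by -2.20 and Prom1, the CD133 surface protein, by 4.13.

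Mycn carried the largest fall of a gene detected on all 4 arrays. It codes for N-MYC, a driver of growth in progenitors. Its relative signal was 0.0955 and 0.124 with both factors, 3.28 and 3.26 with IRF8, 2.15 and 2.20 with C/EBPalpha and 19.9 on both empty-vector arrays. Each factor alone lay between, and the 4 groups did not overlap (log2 change -7.51 ± 0.09, adjusted p = 4.95e-15). Myc had 1.65 on both arrays with both factors, 12.3 and 13.5 with IRF8, 6.91 and 7.12 with C/EBPalpha and 18.4 and 17.4 with empty vectors (-3.44 ± 0.05). Of 10 MYC and MXD family genes tested, 1 was at least 2-fold higher, Mxd1, and 3 were lower, Mycn, Myc and Mxd3 (-2.07), and the median of -0.18 turned to 0.10 with the percentile over detected probes.

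Genes of nucleoli and ribosome assembly fell. All 30 listed were tested, and 27 were at least 2-fold lower and 0 higher with both factors (median -2.16). Dkc1, the pseudouridine synthase of small nucleolar particles, had 0.490 and 0.497 with both factors, 4.452 and 4.496 with IRF8, 1.45 and 1.21 with C/EBPalpha and 6.05 and 6.02 with empty vectors (-3.61 ± 0.07). The arrays with both factors were the lowest and those with C/EBPalpha came next. Nolc1, a nucleolar chaperone, changed by -3.03, Polr1b, a subunit of RNA polymerase I, by -2.96 and Nop56, a core box C/D protein, by -2.83.

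Proliferation genes fell as a group. Of 39 DNA replication and S phase genes, 36 were at least 2-fold lower with both factors and 0 higher (median -2.37). These include Ccne2, which was not well above background with both factors, so no size is given for it. Of 36 mitosis genes 36 were at least 2-fold lower (median -2.46), among them Cenpf, whose bound is at least 1.86-fold. Cdc6, which loads the replicative helicase, had 0.414 and 0.374 with both factors, 2.97 and 2.89 with IRF8, 1.24 and 1.25 with C/EBPalpha and 3.74 and 3.82 with empty vectors. The combination was the lowest and lay apart from C/EBPalpha (-3.26 ± 0.06 against empty vectors and -1.66 against C/EBPalpha). Tk1, thymidine kinase, had 7.004 and 7.018 with both factors, against 62.4 and 62.3 (-3.15), and Pola1, the primase-bound polymerase, changed by -3.11. Of the mitosis genes, Ccna2, cyclin A2, had 2.83 and 2.76 with both factors, 10.07 and 10.02 with C/EBPalpha and 24.5 and 24.3 with empty vectors (-3.13). Foxm1, a transcription factor of the G2 phase, changed by -3.02.

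Of 16 genes of CDK inhibitors and G1 regulators tested, 5 were at least 2-fold higher and 4 lower, and the median of -0.48, or -0.11 with genes at their bound, turned to 0.26 with normexp and to 0.06 with dim values raised. Cdkn1a, the p21 inhibitor, had 83.4 and 83.6 with both factors, 28.1 and 27.8 with IRF8, 24.6 and 24.9 with C/EBPalpha and 17.0 and 16.7 with empty vectors (2.31 ± 0.03, and 1.14 by its other probe). The antiproliferative genes Btg2 and Btg1 changed by 3.06 and 2.89, and Rbl1 by -2.01. The median of the mitosis list was -3.11 with array-median scaling and -2.17 with the percentile over detected probes.

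The promoters of Mycn and Cdc6 are shown because both genes fell and their windows hold the letters of an E2F site. E2F letters, searched as TTTNNCGC, were found in 42.5% of the 40 replication promoters and in 13.2% of the 714 promoters of genes at least 4-fold lower, against 5.17% of all promoters and 7.67% of those of genes tested. They were found in 3.45% of the 29 mitosis promoters, below that share, although the mitosis genes fell too. In Mycn, on the minus strand at chr12:12941787-12942086, they began 183, 179 and 168 bases before the start, the first and the second overlapping on opposite strands. In Cdc6, on the plus strand at chr11:98907901-98908200, they began 138 bases before it on the opposite strand.
Mycn: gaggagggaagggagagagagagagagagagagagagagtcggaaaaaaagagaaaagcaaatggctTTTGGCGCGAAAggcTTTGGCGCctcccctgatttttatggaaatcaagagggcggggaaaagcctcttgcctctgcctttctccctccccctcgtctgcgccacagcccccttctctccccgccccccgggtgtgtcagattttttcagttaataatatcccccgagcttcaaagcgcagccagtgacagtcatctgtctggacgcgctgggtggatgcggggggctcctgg
Cdc6: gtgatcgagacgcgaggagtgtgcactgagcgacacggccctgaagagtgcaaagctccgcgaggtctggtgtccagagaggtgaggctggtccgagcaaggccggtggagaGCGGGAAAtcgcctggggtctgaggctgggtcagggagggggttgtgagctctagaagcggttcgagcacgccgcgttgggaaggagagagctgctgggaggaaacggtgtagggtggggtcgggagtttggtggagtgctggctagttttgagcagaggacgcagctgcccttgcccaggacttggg

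Motif shares were also counted over larger sets of genes. C/EBP letters were held by 50% of the promoters of genes at least 16-fold higher, by 36.7% of those at least 2-fold higher and by 31.5% of those at least 2-fold lower. The E box CACGTG, to which MYC binds, was held by 11.6% of promoters of genes at least 2-fold lower, 7.88% of those at least 2-fold higher and 9.36% of those of genes tested. Interferon-type letters were held by 35.1% of the 37 promoters of interferon-stimulated genes. Some genes have several promoters in the table, and promoters were matched for 10690 of the 13337 genes tested.

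**Figure D4:**
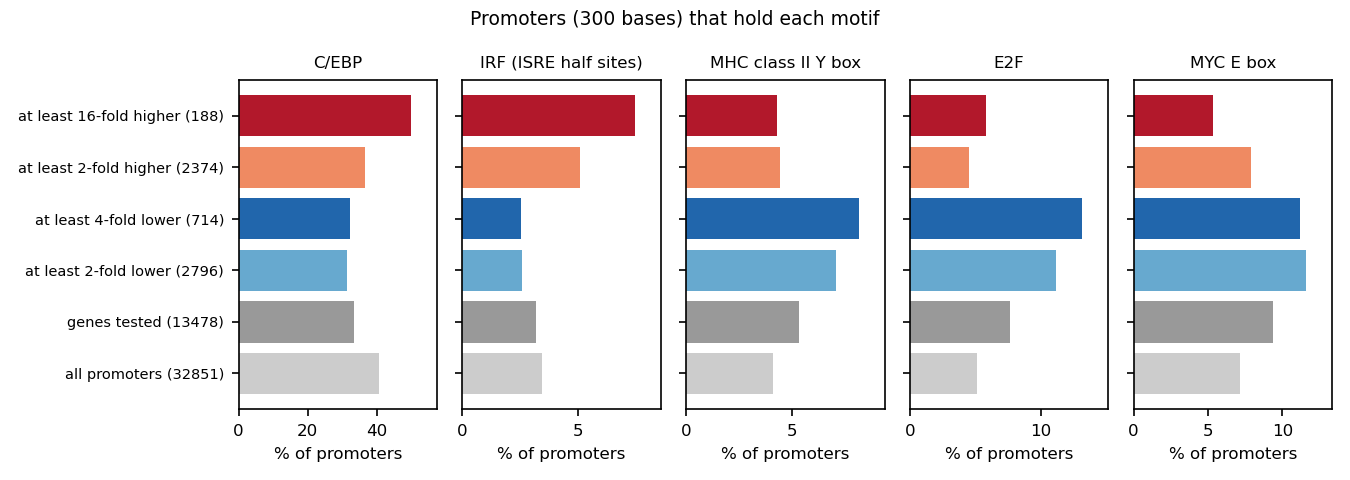
Share of 300-base RefSeq promoters that hold each motif on either strand (percent, a scale for each panel), for genes at least 16-fold or 2-fold higher and at least 4-fold or 2-fold lower with both factors, for all genes tested and for all promoters (number of promoters in brackets). C/EBP and interferon-type letters are most frequent at 16-fold higher (50% and 7.45%), E2F letters at 4-fold lower (13.2%).

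Survival and metabolic genes were measured as 3 lists. Of 12 BCL2 family genes tested, 5 were at least 2-fold higher and 2 lower, and the median of 0.43 turned to -0.23 with array-median scaling. Bcl2, the prototype survival gene, had 2.23 and 2.20 with both factors, 11.7 and 12.3 with IRF8, 2.80 and 2.91 with C/EBPalpha and 14.0 and 12.8 with empty vectors (-2.60 ± 0.05). Its relative Bcl2a1d, one of several near-identical copies, changed by 3.36, and the proapoptotic genes Bmf, Bbc3 and Pmaip1 by 2.62, 1.98 and 1.85. Of 27 cholesterol and fatty acid synthesis genes tested, 8 were at least 2-fold lower and 1 higher (median -0.62). The 8 include Hsd17b7, which was not well above background with both factors, so no size is given for it. Elovl6, a fatty acid elongase, changed by -2.71 and Acaca, acetyl-CoA carboxylase, by -2.14, while Nr1h3, the oxysterol receptor LXRalpha, was at least 8.03-fold higher. Of 18 glycolysis genes, 2 were at least 2-fold lower, Hk3 (-1.66) and Hk2 (-1.34), and 0 at least 2-fold higher (median -0.46).

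Genes of other blood lineages were measured as well. The summed relative signal of the basophil, mast cell and eosinophil list was 173.1 to 176.6 with both factors and 138.3 to 144.6 with empty vectors, that of the T and NK cell list 40.5 to 42.2 and 30.8 to 32.5, and that of the B cell list 3.95 to 4.32 and 2.30 to 2.35. The sums were 24.8 to 25.1 with both factors and 39.1 to 39.3 with empty vectors for erythroid genes and 45.2 to 45.3 and 115.2 to 115.9 for megakaryocyte and platelet genes. With both factors 14 of 29 basophil and mast cell genes, 4 of 14 B cell genes, 10 of 24 T and NK cell genes, 11 of 16 erythroid genes and 11 of 16 megakaryocyte genes were well above background, against 17, 5, 13, 12 and 13 with empty vectors. These counts were lower with both factors in each of the lists, also where the sums were higher. Signals were divided by an array value that was lower with both factors, so equal dim signals come out higher. A higher sum is therefore no measure of more such cells. The part of these cells in the changes above was not tested. Of the defining genes, Ms4a2, Fcer1a, Pax5, Ms4a1, Cd3g and Ncr1 were too dim to enter the test.

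Of 20 basophil, mast cell and eosinophil genes tested, 8 were at least 2-fold lower and 5 higher. The 5 include Ear1, which was well above background on none of the 4 arrays compared. The 8 include Mcpt2, not well above background with both factors, whose bound is at least 1.79-fold lower. The median of -0.63 turned to 0.23 with normexp. Gzmb, granzyme B, had 1.90 and 1.93 with empty vectors and was at least 25.4-fold lower with both factors, where it was not well above background. Slc18a2, the vesicular amine transporter, changed by -3.05. Of 14 megakaryocyte and platelet genes, 7 were at least 2-fold lower and 3 higher (median -1.15), among them Gp9 (-4.17, detected on 1 of 2 arrays with both factors) and Vwf (2.59), while Gp1ba fell at least 6.80-fold. Of the 12 erythroid genes tested, 6 were at least 2-fold lower and 2 higher (median -1.13, or -0.78 with genes at their bound), with Hba-a1 at -2.75 and the transferrin receptor gene Tfrc at -2.55. Of 5 B cell genes tested, 3 were at least 2-fold higher, Cd22 (2.24), Vpreb1 (1.18) and Cd79a (1.11, a call lost with array-median scaling), and 1 was lower, Cd79b (-2.85), with a median of 1.11. Of 13 T and NK cell genes, 2 were at least 2-fold higher, Cd7 (3.69) and Cd3e (1.33), and 1 was lower, Lck, whose change of -1.16 turned to 0.05 with normexp. The median of 0.12, or 0 with genes at their bound, turned to -0.54 with array-median scaling. Whether the higher floor with both factors had a part in the small rises of Vpreb1 and Cd79a was not tested.

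Among 16 immediate early and heat shock genes, 6 were at least 2-fold higher and 1, Egr1, lower (median 0.71). Junb changed by 1.81 and Hspa8 by 1.30, and Hspb1 was at least 6.03-fold higher. Hspb1 entered the test through the arrays with both factors alone, so its difference is a description.

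The 15 largest rises among genes detected on all 4 arrays included several that stood in none of the lists. Mogat2, a monoacylglycerol acyltransferase, had 19.0 and 19.6 with both factors, 0.107 and 0.116 with IRF8, 23.1 and 23.4 with C/EBPalpha and 0.0767 and 0.0855 with empty vectors. Its level with both factors was near that with C/EBPalpha, and the change against empty vectors was 7.90 ± 0.07. The kallikrein genes Klk1b24 and Klk1b22, near-identical copies whose probes may share signal, changed by 6.56 and 6.37. Cd200r2, a receptor of the CD200R family, changed by 5.96, Hcar2, the nicotinic acid receptor, by 5.94, Clec4b2, a C-type lectin, by 5.89 and Slc23a3 by 5.73. Of genes not well above background with empty vectors, Clec4b1 was at least 256.4-fold higher, Mgst1, a glutathione transferase of membranes, at least 189.5-fold and P2ry6, a receptor for UDP, at least 159.9-fold.

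Among the 15 largest falls, Car12, a carbonic anhydrase, had 0.289 and 0.339 with both factors, against 6.02 and 5.95 with empty vectors (-4.26 ± 0.08). Angpt1, the TIE2 ligand angiopoietin 1, had 0.0856 and 0.0973 with both factors, 0.0710 and 0.0677 with IRF8, 0.789 and 0.719 with C/EBPalpha and 1.24 and 1.39 with empty vectors, so that here the IRF8 arrays were the lowest. Srm, spermidine synthase, changed by -3.76, Slc19a1, the reduced folate carrier, by -3.57 (-1.03 by its other probe), Slc29a1, a nucleoside transporter, by -3.53 and Ctps, CTP synthase, by -3.52. Tespa1, a lymphocyte signalling protein, changed by -4.17. Probes also differed in size, though not in direction, for Cd80 (2.49 to 3.68), Hcar2 (4.78 to 5.94), Prom1 (2.96 to 4.13), Rbl1 (-3.10 to -2.01) and Tfrc (-3.75 to -2.55).

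Which of these levels differed from a single factor was tested in the same fit. Against C/EBPalpha alone 9651 genes (72.4%) changed, with 994 (7.45%) at least 2-fold higher and 1130 (8.47%) at least 2-fold lower with both factors. Against IRF8 alone 10961 genes (82.2%) changed, with 1812 (13.6%) at least 2-fold higher and 2203 (16.5%) lower. Relative to C/EBPalpha, 10 of 10 MHC class II genes were at least 2-fold higher (median 4.07), 19 of 25 late neutrophil genes at least 2-fold lower and 0 higher (median -1.99), and 9 of 11 primary granule genes lower (median -2.09). The replication and mitosis lists were lower than with C/EBPalpha too, by at least 2-fold in 29 of 39 and 34 of 36 genes (medians -1.39 and -1.61), while 2 of 30 nucleolar genes were. Relative to IRF8, 6 of 10 class II genes were at least 2-fold higher (median 1.37), 22 of 25 late neutrophil genes higher (median 4.05), and 35 of 39 replication, 36 of 36 mitosis and 27 of 30 nucleolar genes lower.

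Named single genes gave the ends of these comparisons. Against C/EBPalpha the highest were Ccl17 (9.72), Cd74 (8.71), Ctss (6.49), Klk1b24 (6.15), Clec4n (6.09) and Klk1b8 (5.31). The lowest were Trem3 (-4.80), Mycn (-4.32), the platelet protein gene Mmrn1 (-4.03), eosinophil peroxidase Epx (-3.64), Tesc (-3.40) and Lrg1 (-3.31). Trem3, a myeloid receptor, had 0.361 and 0.336 with both factors, 0.0965 and 0.0820 with IRF8, 9.73 and 9.62 with C/EBPalpha and 0.702 and 0.666 with empty vectors. The C/EBPalpha arrays alone were above those with empty vectors. Against IRF8 the highest were Mogat2 (7.44), Wfdc21 (6.52), the neutrophil granule protein gene Ngp (6.45), the stefin genes Stfa3 (5.80) and Stfa1 (5.66), which have near-identical relatives, and Ankrd22 (5.44). The lowest were Mycn (-4.91), the globin genes Hbb-b2 (-3.81) and Hbb-bt (-3.74), Tespa1 (-3.81), Car12 (-3.46) and Gata2 (-3.42). Hbb-bt had 8.70 and 8.65 with both factors, 114.1 and 117.2 with IRF8, 1.35 and 1.23 with C/EBPalpha and 11.65 and 11.96 with empty vectors, so that the IRF8 arrays alone were above those with empty vectors.

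**Figure D5:**
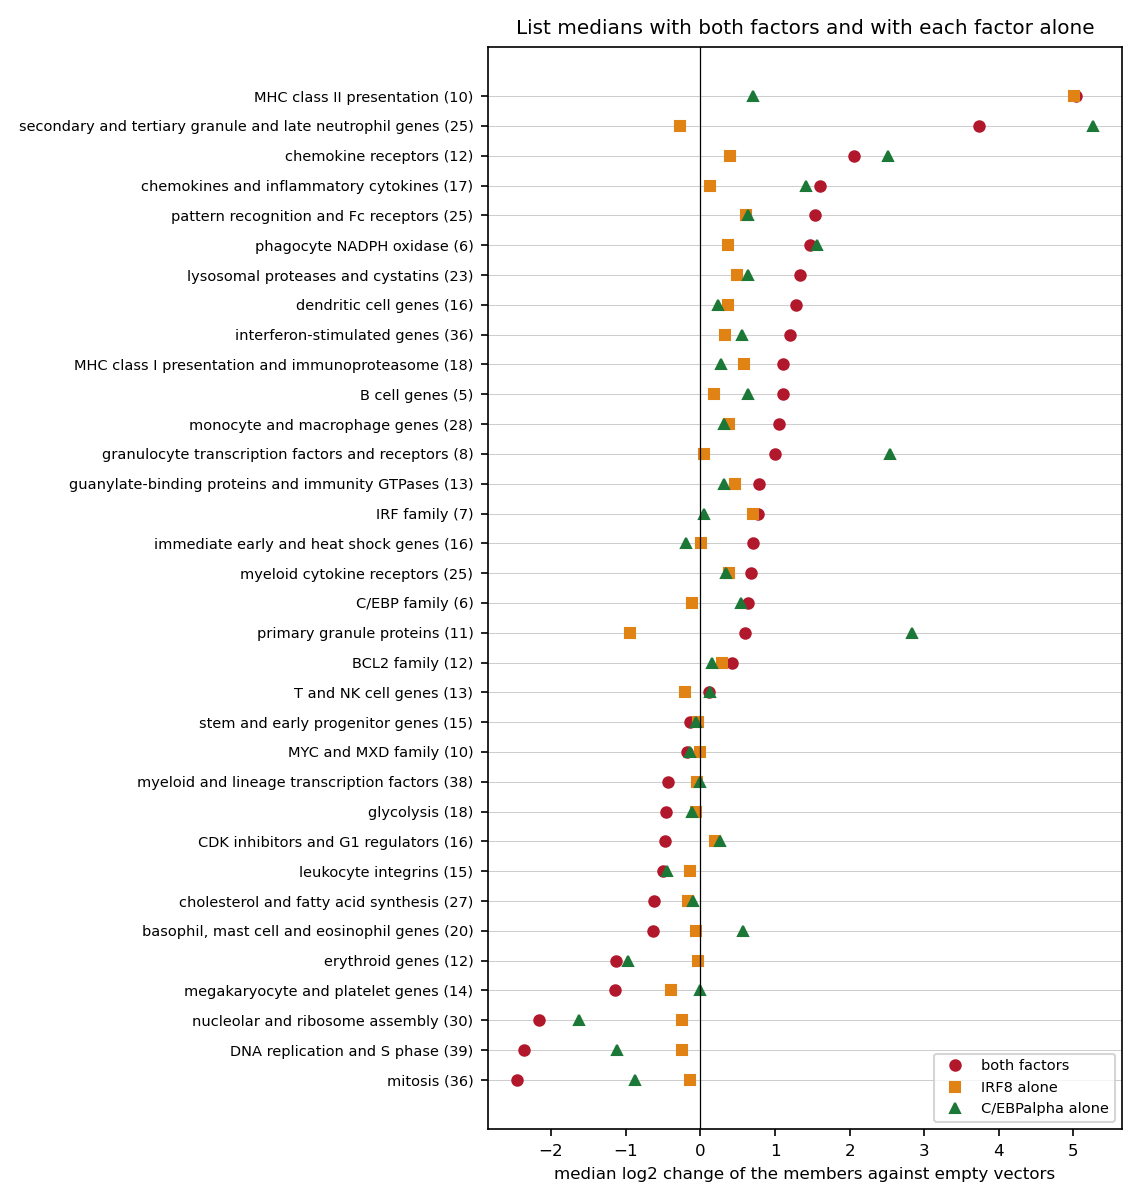
Median log2 change against empty vectors of the members tested in each of 34 lists (number in brackets), with both factors (circles), IRF8 (squares) and C/EBPalpha (triangles), all against the same 2 empty-vector arrays. For MHC class II the medians with both factors and IRF8 are 5.03 and 5.01, for late neutrophil genes both factors lie below C/EBPalpha (3.74 and 5.26), and for mitosis both factors are lowest at -2.46.

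The changes with both factors and with each factor share the empty-vector arrays, so they are given side by side. The MHC class II median was 5.03 with both factors, 5.01 with IRF8 and 0.70 with C/EBPalpha. For late neutrophil genes the medians were 3.74, -0.27 and 5.26 in the same order, for replication genes -2.37, -0.25 and -1.11, for mitosis genes -2.46, -0.13 and -0.87 and for nucleolar genes -2.16, -0.25 and -1.63. Whether the change with both factors differed from the sum of the single-factor changes was tested as the interaction on the log2 scale. It was called for 7429 genes (55.7%), positive for 3175 (23.8%) and negative for 4254 (31.9%). Among replication genes it was negative for 36 of 39 and positive for 0 (median -1.13), and among mitosis genes negative for 35 of 36 and positive for 0 (median -1.47). Among late neutrophil genes it was negative for 23 of 25 and positive for 2 (median -1.40). Other lists leaned the other way. The interaction was positive for 6 of 10 MHC class II genes and negative for 2 (median 0.55). It was positive for 11 and negative for 3 of 18 MHC class I genes (median 0.25). For 23 lysosomal genes these counts were 11 and 4 (median 0.14), and for 16 immediate early and heat shock genes 11 and 3 (median 0.76). With array-median scaling 788 genes had a positive and 7708 a negative interaction.

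The genes changed by both factors in 32Dcl.3 cells were also read on the progenitor arrays, which share no sample with the 32Dcl.3 arrays and were fitted separately with limma. Of the genes raised at least 2-fold with both factors, 1596 were tested in common monocyte progenitors, and 606 (38%) were higher and 306 (19.2%) lower in Irf8-deficient than in wild-type cells, with a median log2 change of 0.19. Of all 11963 genes tested in those progenitors 23% were higher and 31.1% lower, and of the 11206 tested in both systems 2482 (22.1%) were higher and 3501 (31.2%) lower (median -0.03). Of the genes lowered at least 2-fold, 2507 were tested, with 236 (9.41%) higher and 1488 (59.4%) lower in Irf8-deficient cells (median -0.23). Of the genes raised at least 16-fold, 101 were tested, with 35 (34.7%) higher and 38 (37.6%) lower (median -0.02). All these progenitor calls are of any size. At 2-fold in the progenitors as well, 3.9% of the genes tested in both systems were higher and 2.79% lower. The shares were 12.4% and 7.27% for genes raised at least 2-fold and 1.6% and 2.71% for those lowered. For genes raised at least 16-fold they were 22.8% and 24.8%.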

How the data were processed

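The deposited files hold single-colour Agilent scanner output, 1 array each. Per the file headers, processed signals are background-corrected intensities from Agilent Feature Extraction with build mm9, and flags of the same deposited files, of unit other, mark spots well above background or outlying. The authors' deposited series values, on a log2 scale, were used only as an alternative. Processed intensities were divided by the 75th percentile of their array and taken to log2. The brightest probe stood for a gene, and genes had to be well above background on both arrays of at least 1 group. Of 55681 probes, 26762 matched 1 symbol through the platform annotation and RefSeq, and 28919 none.

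The 8 32Dcl.3 arrays were fitted as 4 groups with limma 3.58.1 (lmFit and eBayes with trend, R 4.3.3), two-sided, with Benjamini-Hochberg adjustment over all genes tested and a threshold of 0.05. The fit was tested on simulated data with 200 changed genes and no shift between arrays. Far more genes changed in these data, so that simulation does not cover the scaling. Named genes were the 15 largest rises and falls, the 8 highest bounds in each direction, up to 6 members of each list with the largest change, and the 6 largest in each direction for other contrasts. The members and the 34 lists were chosen with earlier results of these data known. Alternatives were other scalings and background corrections, filters, probe rules, a replicate block and arrays left out. Only 2 arrays a group limit the precision.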

Additional observations from a re-analysis of the deposited data

Results flagged for a closer look

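For 12 genes the change with both factors differed from the sum of the single-factor changes, by the interaction in the limma fit with Benjamini-Hochberg adjustment over all genes. They are the 6 highest and 6 lowest among genes detected on all 8 32Dcl.3 arrays. Il6, the gene of interleukin-6, had the highest interaction at 4.47 (adjusted p = 2.56e-09). It had relative signals of 0.383 and 0.449 with both factors, 0.151 and 0.142 with IRF8, 0.0913 and 0.109 with C/EBPalpha and 0.789 and 0.772 with empty vectors, so each factor alone was lower than the combination. Ccl17 had an interaction of 3.32 and Itgax of 2.67, and in both C/EBPalpha alone lay below empty vectors. Lrrc14b had 2.65, Clec4d, a C-type lectin, 2.26 and Atp9a, whose 2 probes changed by 0.26 and 1.62, had 2.22.

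Among the negative values, Lyz2 had -3.25 and Trem2 -3.20. Trem2 had relative signals of 10.6 and 10.4 with both factors, 6.97 and 6.96 with IRF8, 3.00 and 2.75 with C/EBPalpha and 0.198 and 0.219 with empty vectors. Aldh3b1 had -3.13, Pram1 -2.83, Ceacam2 -2.82 and Csprs -2.80. Ceacam2 had 3.63 and 3.12 with both factors and 28.7 and 26.7 with C/EBPalpha. The part of array position in these values was not tested.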

How the results depend on the processing

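With array-median scaling 2500 genes were higher with both factors than with empty vectors, 1248 of them at least 2-fold, and 5510 were at least 2-fold lower. Against C/EBPalpha that scaling gave 1987 higher and 7802 lower, against IRF8 1789 and 9334, and for the interaction 788 and 7708. Without a filter on dim probes 9937 genes were higher, 7050 at least 2-fold, and 9382 were higher than with IRF8.

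List medians turned with array-median scaling for primary granule genes (-0.0552), the C/EBP family (-0.0218), the BCL2 family (-0.23) and T and NK cell genes (-0.54). They turned with the percentile over detected probes for the MYC and MXD family (0.10) and stem cell genes (0.14). They turned with normexp for integrins (0.20), G1 regulators (0.26, and 0.0619 with dim values raised) and basophil genes (0.23). The T and NK median was -0.17 with quantile normalization, -0.37 with the authors' series values, -0.14 with the mean of all probes, -0.22 with the 4 arrays alone and between -0.0633 and 0.147 with 1 array left out at a time, below 0 without array 2 of both factors or array 2 of empty vectors. Of 255 named gene results, 7 turned: Cebpb (array median -0.48, normexp -0.089), Hsd17b7 (normexp 0.87, dim values raised 0.89), Egr1 (0.71 and 0.11) and, with normexp, Lck (0.052), Thy1 (0.20), Cd5 (0.43) and Hbb-bs (0.36). The cause was not tested. The call was lost for 6: Irf2, Irf5, Mnt and Cd79a with array-median scaling (Cd79a also with quantile normalization and the series values), Hsd17b7 without array 2 of empty vectors and Ear1 with the series values.

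Leaving out 1 array at a time gave 4756 to 5179 genes higher and 6042 to 6263 lower, with 2309 to 2508 and 2760 to 2825 at least 2-fold. The main fit did not pair arrays by replicate number. Correlations of same-numbered deviations ran between -0.06 and 0.05, so no strong shared shift was seen. They cannot tell whether same-numbered arrays come from 1 experiment. A replicate block gave 5061 higher and 6231 lower.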
